A study of Mus musculus with 12 samples.

Results

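The levels of 9 genes of the NRF2 system were followed through the lumbar spinal cord of mice with and without an amyotrophic lateral sclerosis (ALS) model. The 9 members were taken by name, with earlier results of these data known. They are the regulators Nfe2l2 and Keap1, the protective targets Nqo1, Srxn1 and Slc7a11, and the NADPH-supply genes G6pdx, Pgd, Taldo1 and Me1. All 9 are among the 33906 gene identifiers listed, and all 9 passed the filter on low values that left 18119 genes. Poly(A) RNA of 12 mice was sequenced, 3 mice in each of 4 groups. Group C held ALS model mice treated with Mn@CDs (C79, C84 and C85), manganese-doped carbon dots that the series title describes as a mimic of superoxide dismutase. Group E held ALS model mice (E75, E77 and E90) and was read as the edaravone group by elimination, because the series text lists a code E but describes the radical scavenger edaravone under a code D. Group P held ALS model mice given PBS (P66, P67 and P74), and H1, H2 and H4 were healthy wild-type animals (group H). The sources used here do not give the mutation, strain, age or sex of the mice, or the dose and length of treatment.

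NRF2, the protein of Nfe2l2, is a transcription factor that the adaptor KEAP1 holds and passes to a cullin 3 ubiquitin ligase for destruction. Oxidants and electrophiles react with cysteines of KEAP1, after which NRF2 accumulates, pairs with small MAF proteins and binds antioxidant response elements (AREs) near its targets. Much of this control acts on the protein, which was not measured here. The targets detoxify quinones and peroxides, import cystine for glutathione, and make NADPH, the reductant that glutathione and thioredoxin systems consume. In nervous tissue this response is known best from astrocytes.

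The shared target motif was looked for in the stretch from 250 bases before to 50 after each annotated start, which RefSeq gives for GRCm38.p6. All 9 members were found by name among these starts, with 11 starts in all because Pgd and Me1 have an extra start each. The ARE core TGACNNNGC was found on either strand in 5 of the 11 windows, from 5 members (Nfe2l2, Srxn1, G6pdx, Pgd and Me1), and in 12.4% of all 32851 promoter windows. The AP-1 type motif TGANTCA, which can overlap the ARE core, was in the windows of Srxn1 and Me1 and in 7.81% of all windows. A match describes these letters. No match says nothing of elements outside the windows, or of elements inside them that are spelled otherwise. The stretches with matches upstream of, or across, the first annotated start are shown so that the matches can be seen in their context, with both motifs in capitals and positions counted from the start.
Nfe2l2 (chr2:75704814-75704913, minus strand, positions -250 to -151): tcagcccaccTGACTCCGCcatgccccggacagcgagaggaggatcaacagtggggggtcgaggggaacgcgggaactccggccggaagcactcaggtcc
Srxn1 (chr2:152105404-152105503, plus strand, positions -120 to -21): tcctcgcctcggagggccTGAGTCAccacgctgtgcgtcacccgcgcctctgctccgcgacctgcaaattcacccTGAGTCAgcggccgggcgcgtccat
Me1 (chr9:86695910-86696009, minus strand, positions -95 to 5): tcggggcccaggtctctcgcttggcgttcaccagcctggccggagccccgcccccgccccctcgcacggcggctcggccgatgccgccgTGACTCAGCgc
G6pdx (chrX:74428881-74428980, minus strand, positions -100 to -1): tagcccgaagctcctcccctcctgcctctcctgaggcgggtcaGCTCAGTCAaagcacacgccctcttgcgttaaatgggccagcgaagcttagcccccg
The Srxn1 stretch holds the AP-1 type motif at 2 places, and its match to TGACNNNGC lies after the start, outside the stretch shown. The AP-1 type match nearer the start reads on as TGAGTCAgc, with G where the searched core has its first C. Such a spelling was not searched for. In Me1 the ARE core and the AP-1 type motif lie over each other across the start, and in G6pdx the ARE core is read on the opposite strand.

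Values are FPKM, read counts scaled by exon length and library size. The length covers all annotated exons of a gene, so levels compare only roughly between genes. The reads recovered from them summed to 16.8 to 19.8 M per library, with 117 to 2856 reads per member and library. Group means are given ± SD with n = 3 mice. Fold changes are log2 differences of FPKM + 1 with their standard errors, from limma with Benjamini-Hochberg adjustment over the 18119 tested genes and a threshold of 0.05. They understate changes of low genes. In bulk tissue, fewer cells of a type and less RNA per cell cannot be told apart. Markers of glia moved with the groups. The summed level of 15 microglia markers was 984 to 1277 FPKM in C, 742 to 1209 in E, 776 to 1734 in P and 207 to 292 in H. For 12 astrocyte markers it was 3586 to 3867, 3031 to 3586, 3171 to 4378 and 2416 to 2684 FPKM in the same order. No marker of either list was at 0 in all libraries. Of the 15 microglia markers 13 rose in C, 13 in E and 14 in P, each against H, and 0 fell. Of the 12 astrocyte markers 4, 5 and 6 rose, and 1 (S100b) fell in E. Over all tested genes, 7.25% rose in C, 11% in E and 12.2% in P, and 1.06%, 2.15% and 3.26% fell. The summed level of 12 neuron markers was 1622 to 1729 FPKM in C, 1571 to 1641 in E, 1178 to 1888 in P and 2085 to 2822 in H. Of the neuron markers 3 fell in C, 5 in E and 9 in P against H, and 0 rose. For 12 markers of meninges and fibroblasts the sum was 73.6 to 170 FPKM in C, 165 to 335 in E, 64.7 to 170 in P and 19.2 to 41.7 in H, and 5, 10 and 3 of them rose in C, E and P against H. For 12 oligodendrocyte markers it was 5041 to 5457 FPKM in C, 3334 to 4325 in E, 4511 to 4860 in P and 4958 to 6333 in H. Against H, 1 of them (Cldn11) rose and 0 fell in C, while 4 fell in E and 2 in P. Of the caudal Hox genes, which mark position along the cord, 3 of 9 tested rose in E against H. In C and in P against H, 0 rose and 0 fell, and the scores of C, P and H overlapped. The caudal Hox score, the mean log2(FPKM + 1) of these 9 genes, was 1.34, 0.54 and 1.26 in C79, C84 and C85, 2.25, 2.63 and 2.71 in E75, E77 and E90, 0.86, 2.09 and 2.55 in P66, P67 and P74, and 1.67, 1.31 and 0.32 in H1, H2 and H4. Single healthy libraries stood apart in blood and muscle markers. The sum of 10 skeletal muscle markers was 2693 FPKM in H1, against 37.4 to 269 in the other libraries. The sum of 8 erythroid markers was 108 to 389 FPKM in the 9 ALS model libraries, against 1267 FPKM in H1, 403 in H2 and 2579 in H4. Of these markers 1 fell in C, 5 fell in E and 3 fell in P. The part of these markers in the results was not tested.

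In the ALS model, Nfe2l2 rose in all 3 ALS model groups, to 1.91 times the healthy mean in C, 2.20 times in E and 2.25 times in P. Slc7a11 and Pgd also rose in all of them, and G6pdx rose in the PBS group. Keap1, Srxn1, Taldo1, Nqo1 and Me1 did not pass in any comparison with healthy mice. In P against H, 4 of 9 members rose and 0 fell, while 12.2% of all tested genes rose and 3.26% fell. In C against H, 3 of 9 rose and 0 fell, against 7.25% and 1.06% of all tested genes. In E against H, 3 of 9 rose and 0 fell, against 11% and 2.15% of all tested genes. Over both directions, 15.5% of tested genes passed for P, 8.31% for C and 13.2% for E. The median log2 fold change of the 9 members was 0.34 in C, 0.25 in E and 0.32 in P, each against H. Over all tested genes the medians were 0.068, 0.077 and 0.069. These comparisons share the 3 healthy libraries. Because the members and the lists below were chosen with earlier results of these data known, such shares describe them and test nothing. The share of calls that were higher was 87.2% for C, 83.7% for E and 78.9% for P, and it was 67.5%, 58.9% and 53.4% with median-ratio scaling.

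**Figure D1:**
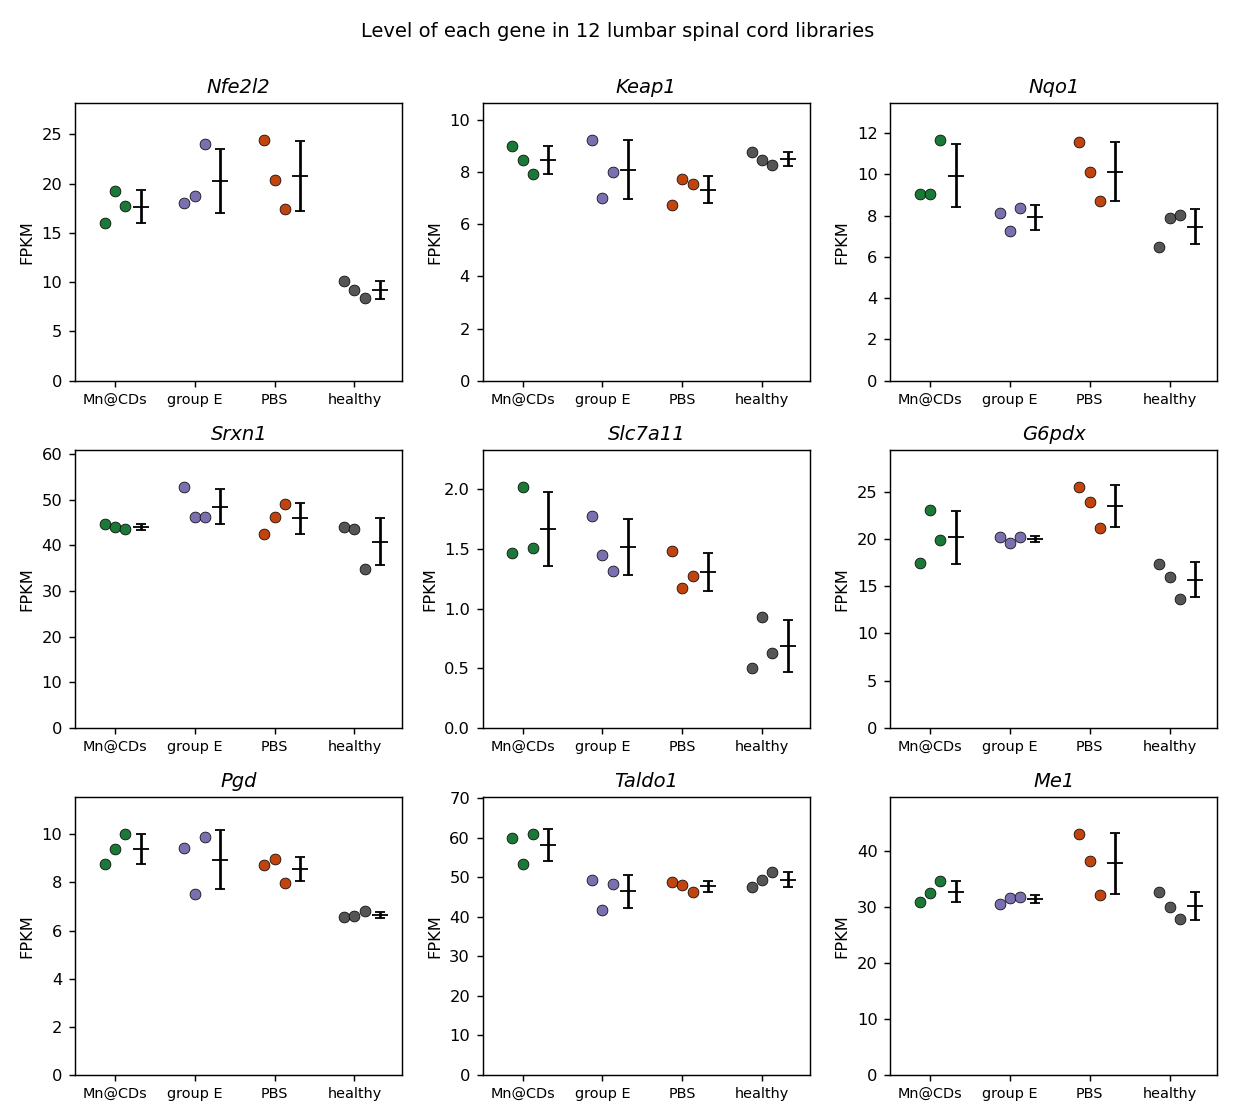
Each panel plots the level of 1 gene (FPKM, linear axis from 0) in the 12 libraries, with 1 point per mouse and a bar for the mean ± SD of each group (n = 3). All 9 ALS model points lie above the healthy points for Nfe2l2, Slc7a11, G6pdx and Pgd, and the Mn@CDs points of Taldo1 lie above all others.

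Nfe2l2 (ENSMUSG00000015839, chromosome 2, 75675513 to 75704641 on the minus strand of GRCm38) rose in all 3 comparisons with healthy mice. By ratio of means its change was larger than that of Slc7a11 in P, and smaller in C and E. Its level was 16.0, 19.3 and 17.7 FPKM in C79, C84 and C85, and 18.1, 18.7 and 23.98 FPKM in E75, E77 and E90. It was 24.5, 20.4 and 17.4 FPKM in P66, P67 and P74, and 10.2, 9.17 and 8.35 FPKM in H1, H2 and H4. The lowest ALS model library, C79, was well above the highest healthy library, and P66 and E90 were the highest of all. The group means were 17.65 ± 1.66 FPKM in C, 20.3 ± 3.24 in E, 20.75 ± 3.54 in P and 9.22 ± 0.905 in H. Nfe2l2 rose in C by 0.87 ± 0.14 (adjusted p = 0.00367), in E by 1.05 ± 0.14 (adjusted p = 0.00103) and in P by 1.08 ± 0.14 (adjusted p = 0.00087), each against H. All 3 calls held in all 19 alternative settings.

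Keap1 (ENSMUSG00000003308, chromosome 9, 21229730 to 21239361, minus strand) did not pass the test in any comparison. Its level was 9.01, 8.46 and 7.92 FPKM in C79, C84 and C85, and 9.24, 6.998 and 8.01 FPKM in E75, E77 and E90. It was 6.72, 7.71 and 7.52 FPKM in P66, P67 and P74, and 8.77, 8.45 and 8.25 FPKM in H1, H2 and H4. All PBS libraries lay below the healthy ones, while C and E overlapped them. The difference of P from H was -0.19 ± 0.096 (95% confidence interval -0.40 to 0.017, adjusted p = 0.187), and those of C and E from H were -0.0053 ± 0.096 and -0.070 ± 0.096 (adjusted p = 0.981 and 0.661). Exons of the antisense gene Gm16754 cover 510 bases of the exons of Keap1, and that gene averaged 0.619 FPKM in C, 0.837 in E, 0.785 in P and 0.727 in H.

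Because FPKM is scaled by length, the ratio of Nfe2l2 to Keap1 can be read within each library. It was 1.77, 2.28 and 2.23 in C79, C84 and C85, and 1.96, 2.68 and 2.99 in E75, E77 and E90. It was 3.64, 2.64 and 2.31 in P66, P67 and P74, and 1.16, 1.08 and 1.013 in H1, H2 and H4. The ratio was thus near 1 in healthy cord and higher in every ALS model library. The length covers all annotated exons of a gene, so a ratio of 1 need not mean equal numbers of transcripts.

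**Figure D2:**
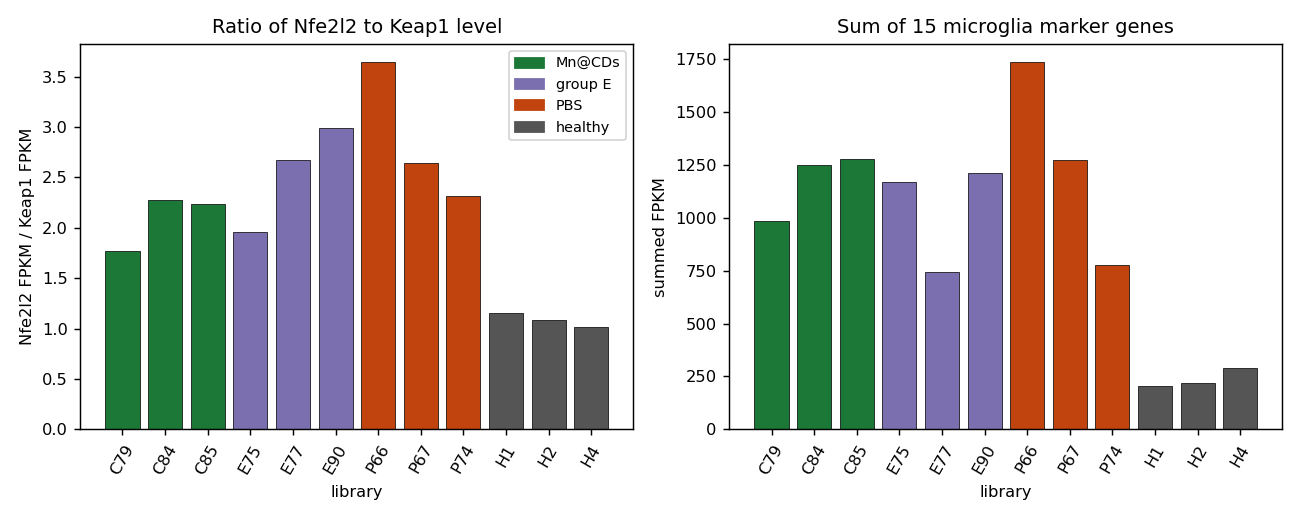
The left panel plots the ratio of Nfe2l2 FPKM to Keap1 FPKM, and the right panel the summed FPKM of 15 microglia markers, with 1 bar per library coloured by group and axes from 0. The healthy libraries have ratios of 1.013 to 1.16 and the ALS model libraries of 1.77 to 3.64. P66 is highest in both panels. E77 has the lowest microglia sum of the ALS model libraries and a ratio of 2.68. A link between the panels was not tested.

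Among the protective targets, Slc7a11 rose in every ALS model group, and neither Nqo1 nor Srxn1 passed. Slc7a11 (ENSMUSG00000027737, chromosome 3, 49892526 to 50443614, minus strand) encodes the light chain of the cystine-glutamate exchanger and was the member of lowest level. It had 1.46, 2.02 and 1.51 FPKM in C79, C84 and C85, and 1.78, 1.45 and 1.32 FPKM in E75, E77 and E90. It had 1.48, 1.17 and 1.27 FPKM in P66, P67 and P74, and 0.501, 0.925 and 0.627 FPKM in H1, H2 and H4. No ALS model library overlapped the healthy ones, and C84 was the highest. The ratio of group means over H was 2.43 for C, 2.21 for E and 1.91 for P. On the log2(FPKM + 1) scale it rose by 0.66 ± 0.13 in C (adjusted p = 0.00876), 0.58 ± 0.13 in E (adjusted p = 0.0114) and 0.46 ± 0.13 in P (adjusted p = 0.0306). With a pseudocount of 0.1 these changes were 1.19, 1.07 and 0.87, and with limma-voom on recovered reads 1.30, 1.18 and 0.97. The call in P was lost in 6 of 19 settings: without P66 (adjusted p = 0.12), P67 (adjusted p = 0.0612), H1 (adjusted p = 0.0895) or H4 (adjusted p = 0.0647), without the filter on low values (adjusted p = 0.068) and when P and H alone were fitted (adjusted p = 0.0637).

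Nqo1 (ENSMUSG00000003849, chromosome 8, 107388225 to 107403206, minus strand) encodes a quinone reductase that uses NAD(P)H and is a classical NRF2 target. Its level was 9.04, 9.05 and 11.7 FPKM in C79, C84 and C85, and 8.14, 7.24 and 8.36 FPKM in E75, E77 and E90. It was 11.6, 10.1 and 8.71 FPKM in P66, P67 and P74, and 6.48, 7.87 and 8.01 FPKM in H1, H2 and H4. The libraries of C and of P lay above all healthy ones, while those of E overlapped them. The differences from H were 0.37 ± 0.12 in C (adjusted p = 0.0914), 0.079 ± 0.12 in E (adjusted p = 0.708) and 0.39 ± 0.12 in P (adjusted p = 0.0519). In P, Nqo1 passed in 4 of 19 settings, which were a pseudocount of 0.1, a covariate of caudal Hox genes (position along the cord), and the fits without C85 or without P74. In E against H its value was -0.029 with median-ratio scaling.

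Srxn1 (ENSMUSG00000032802, chromosome 2, 152105516 to 152111376, plus strand) encodes sulfiredoxin, which restores overoxidised peroxiredoxins. Its level was 44.7, 44.0 and 43.6 FPKM in C79, C84 and C85, and 52.9, 46.3 and 46.2 FPKM in E75, E77 and E90. It was 42.5, 46.2 and 49.1 FPKM in P66, P67 and P74, and 44.0, 43.6 and 34.9 FPKM in H1, H2 and H4. The libraries of E lay above the healthy ones and those of C and P overlapped them, with H4 the lowest of all. The differences from H were 0.12 ± 0.10 in C, 0.25 ± 0.10 in E and 0.17 ± 0.10 in P, and none passed (adjusted p = 0.509, 0.131 and 0.267).

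The NADPH-supply genes did not move as a block. G6pdx and Pgd encode the dehydrogenases of the oxidative pentose phosphate pathway, the first and the last of its NADPH-making steps, and both were above every healthy library in all 9 ALS model libraries. Taldo1 and Me1 were not. G6pdx (ENSMUSG00000031400, chromosome X, 74409483 to 74429194, minus strand) had 17.5, 23.1 and 19.9 FPKM in C79, C84 and C85, and 20.1, 19.6 and 20.2 FPKM in E75, E77 and E90. It had 25.5, 23.9 and 21.1 FPKM in P66, P67 and P74, and 17.4, 16.0 and 13.7 FPKM in H1, H2 and H4. C79 lay just above H1, and the PBS group was highest by mean, at 23.5 ± 2.24 FPKM. G6pdx rose in P by 0.56 ± 0.11 (adjusted p = 0.00929), a call that held in all 19 settings. The differences of C and E from H were 0.34 ± 0.11 each and did not pass (adjusted p = 0.0877 and 0.0707). Exons of Ikbkg, a gene on the other strand, cover 418 bases of those of G6pdx. Ikbkg averaged 4.85 FPKM in C, 4.94 in E, 5.50 in P and 4.49 in H, and differed between P and H by 0.24 ± 0.083 (adjusted p = 0.0681). The sources used here do not say whether strand was used in counting, so reads of such pairs cannot be told apart.

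Pgd (ENSMUSG00000028961, chromosome 4, 149149991 to 149166771, minus strand) had 8.79, 9.37 and 10.03 FPKM in C79, C84 and C85, and 9.43, 7.54 and 9.88 FPKM in E75, E77 and E90. It had 8.72, 8.97 and 7.99 FPKM in P66, P67 and P74, and 6.58, 6.59 and 6.80 FPKM in H1, H2 and H4. The healthy values were tight and none reached E77, the lowest ALS model library. Pgd rose by 0.44 ± 0.096 in C (adjusted p = 0.0176), 0.37 ± 0.096 in E (adjusted p = 0.0259) and 0.32 ± 0.096 in P (adjusted p = 0.0436), each against H. These calls were close to the threshold. The call held in 15 of 19 settings for C, 11 for E and 7 for P, with adjusted p-values up to 0.0783, 0.107 and 0.139. Libraries whose removal ended a call were C84, C85, H1 and H2 for C, and E75, E90, H1 and H2 for E. For P they were C79, C84, C85, E75, P66, P67, H1, H2 and H4. The calls in E and P also ended without the filter on low values, with median-ratio scaling and when the compared pair alone was fitted. With the Hox covariate the call in E ended too, though the value was larger, with a wider error, at 0.43 ± 0.14 (adjusted p = 0.0565). The Hox scores of E and H did not overlap, so that fit cannot tell position from group in E against H.

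Taldo1 (ENSMUSG00000025503, chromosome 7, 141392199 to 141402968, plus strand) encodes transaldolase of the non-oxidative branch and had the highest mean of the members over all libraries. Srxn1 was above it in E75, E77 and P74. It had 60.01, 53.5 and 61.1 FPKM in C79, C84 and C85, and 49.4, 41.8 and 48.3 FPKM in E75, E77 and E90. It had 48.8, 48.1 and 46.2 FPKM in P66, P67 and P74, and 47.6, 49.3 and 51.4 FPKM in H1, H2 and H4. All 3 Mn@CDs libraries lay above the other 9 libraries, a pattern that 0.745% of tested genes showed, and the other groups overlapped one another. The differences of C were 0.23 ± 0.088 from H (adjusted p = 0.129), 0.28 ± 0.088 from P (95% confidence interval 0.086 to 0.47, adjusted p = 0.406) and 0.32 ± 0.088 from E (95% confidence interval 0.13 to 0.51, adjusted p = 0.221). None passed in any of the 19 settings. The pattern was picked after its values were seen.

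Me1 (ENSMUSG00000032418, chromosome 9, 86581371 to 86695953, minus strand) encodes cytosolic malic enzyme, which makes NADPH from malate and also serves fatty acid synthesis. It had 30.9, 32.5 and 34.6 FPKM in C79, C84 and C85, and 30.5, 31.6 and 31.8 FPKM in E75, E77 and E90. It had 43.0, 38.1 and 32.1 FPKM in P66, P67 and P74, and 32.7, 30.0 and 27.7 FPKM in H1, H2 and H4. P66 and P67 stood above all other libraries, while P74 lay within the healthy range. The differences from H were 0.11 ± 0.10 in C (adjusted p = 0.529), 0.056 ± 0.10 in E (adjusted p = 0.761) and 0.31 ± 0.10 in P (adjusted p = 0.0653). Me1 passed in P only without P74 (0.42, adjusted p = 0.014), and in E it was at -0.063 with median-ratio scaling.

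**Figure D3:**
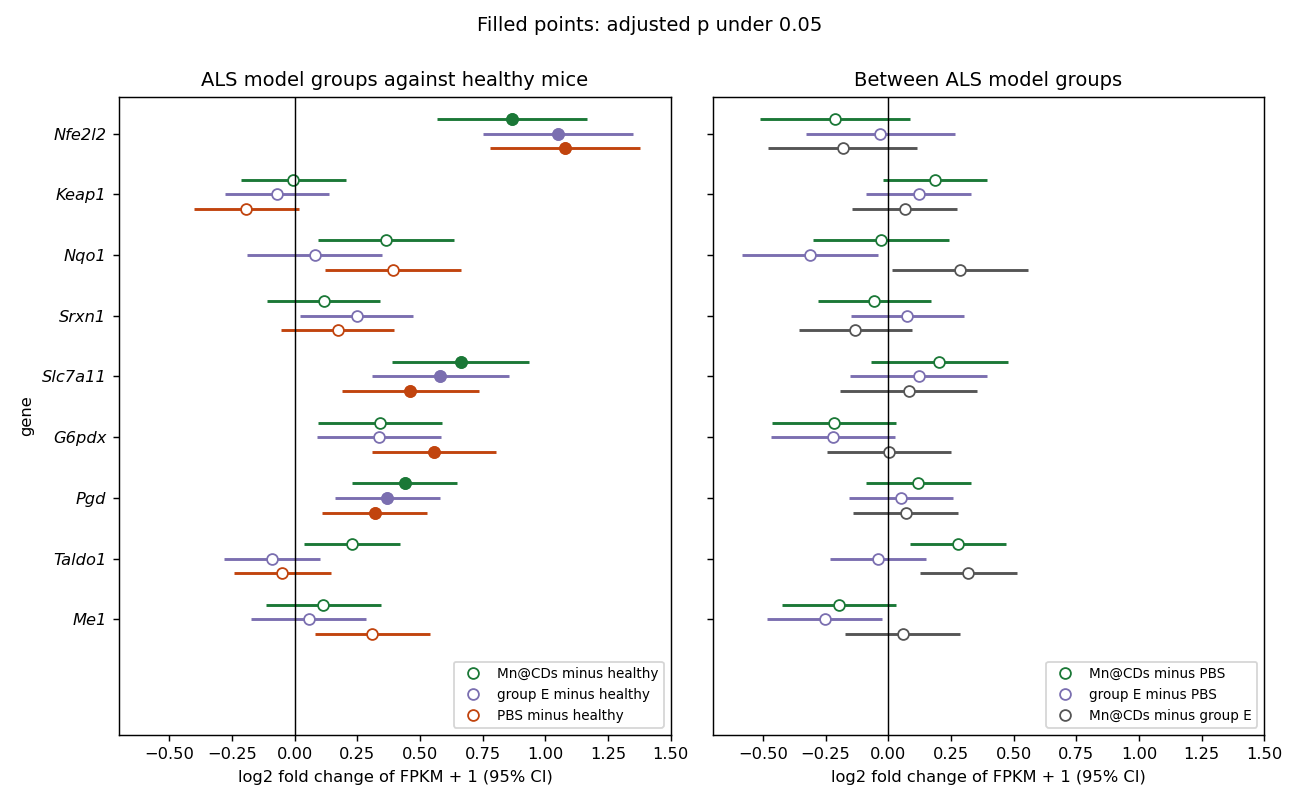
Points are log2 fold changes of FPKM + 1 with 95% confidence intervals for the 9 genes, against healthy mice on the left and between ALS model groups on the right (n = 3 mice per group), and filled points passed an adjusted p of 0.05. Filled points are Nfe2l2, Slc7a11 and Pgd in all 3 groups and G6pdx in the PBS group, and no point is filled on the right.

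Of the 9 members, 6 had all C libraries above all H libraries, which 22.7% of tested genes did. For E the number was 5, against 24.9% of tested genes. For P it was 5 above and 1 below, against 26.4% and 8.88% of tested genes. Nfe2l2, Slc7a11, G6pdx and Pgd were above H in all 9 ALS model libraries, as were 14.1% of tested genes. By group mean the order was P, E, C, H for Nfe2l2, and C, E, P, H for Slc7a11 and Pgd. It was P, C, E, H for Nqo1, G6pdx and Me1, E, P, C, H for Srxn1, H, C, E, P for Keap1 and C, H, P, E for Taldo1. For Nfe2l2, Slc7a11 and Pgd only the step to H passed the test, and neighbours above it did not differ beyond the threshold. For G6pdx the step to its lowest neighbour did not pass, and for the other 5 members no step passed. Among PBS libraries, P66 was the highest for 6 members (Nfe2l2, Nqo1, Slc7a11, G6pdx, Taldo1 and Me1) and P74 the lowest for 6. P74 also had the lowest microglia marker sum of its group, 776 FPKM, against 1734 in P66 and 1272 in P67.

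The comparison of the treated groups with PBS asks what each treatment changes in the model. Limma called 0 of 9 members in C against P, where it called 0.00552% of all tested genes. It called 0 of 9 in E against P, where it called 0% of all tested genes. In C against E it called 0 of 9, against 0.171% of all tested genes. At an unadjusted p under 0.05 the members were 1 in C against P (Taldo1), 2 in E against P (Nqo1 and Me1) and 2 in C against E (Nqo1 and Taldo1). Limma-voom also called 0 in each. The 95% confidence intervals of these differences reached 0.19 to 0.30 to either side.

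For Nfe2l2 the difference of C from P was -0.21 (95% confidence interval -0.51 to 0.086) and that of E from P was -0.031 (-0.33 to 0.27). For Keap1 they were 0.19 (-0.022 to 0.40) and 0.12 (-0.087 to 0.33), and all C libraries lay above all P libraries. All libraries of E lay below all those of P for Nqo1, G6pdx and Me1. Their differences were -0.31 (-0.59 to -0.043), -0.22 (-0.47 to 0.027) and -0.25 (-0.48 to -0.025), with adjusted p = 0.885, 0.998 and 0.92. Over all tested genes, 4.2% had E below P without overlap. Of the members, 2 (Keap1 and Taldo1) had C above P without overlap, which 8.33% of tested genes had. In C against E, 2 members (Nqo1 and Taldo1) lay above without overlap and 1 (Srxn1) below, against 6.61% and 10.3% of tested genes. Markers of nerve roots also moved with group E, as did the Hox score and the markers of meninges and oligodendrocytes given above. With the Hox covariate, 0 genes were called in C against E, where 31 were called without it. The Hox scores of C and E did not overlap, so this fit cannot tell position from group in that comparison. The summed level of 12 Schwann cell and root markers was 307 to 426 FPKM in C, 643 to 1155 in E, 382 to 458 in P and 308 to 361 in H. The part of the root markers in the differences of E was not tested.

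In the lists of other pathway genes, counts stand beside the shares of all tested genes that rose (7.25% in C, 11% in E and 12.2% in P) or fell (1.06%, 2.15% and 3.26%), and a count near these shares says nothing particular of a list. Of 16 tested genes of NRF2 control, 1 (6.25%) rose in C, 2 (12.5%) rose in E, and 1 (6.25%) rose and 1 fell in P, each against H, close to those shares. The medians were -0.043, 0.098 and 0.0058. Maff, a small MAF partner of NRF2, averaged 3.82 ± 0.219 FPKM in C, 3.90 ± 0.321 in E, 3.29 ± 0.755 in P and 1.87 ± 0.313 in H and rose by 0.75 ± 0.13, 0.77 ± 0.13 and 0.57 ± 0.13 (adjusted p = 0.0062, 0.00378 and 0.017). Rbx1, the RING subunit of the cullin ligase, fell in P by 0.37 ± 0.11 on the log2 scale (adjusted p = 0.0382). Bach1, a repressor that competes for AREs, rose in E (0.43 ± 0.095, adjusted p = 0.0124) and was at 0.28 ± 0.095 in P (adjusted p = 0.0614). Cdkn1a, whose product p21 binds NRF2, was at -0.49 ± 0.17 in P (adjusted p = 0.0714).

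Of 30 tested other NRF2 targets, 5 (16.7%) rose in C, 4 (13.3%) rose and 1 fell in E, and 6 (20.0%) rose and 1 fell in P, with the share in E near that of all genes. The medians were 0.14, 0.045 and 0.12. Hmox1, heme oxygenase 1, averaged 10.35 ± 0.982 FPKM in C, 17.03 ± 4.12 in E, 16.45 ± 7.31 in P and 3.56 ± 0.453 in H. It rose by 1.32 ± 0.25 in C, 1.96 ± 0.25 in E and 1.86 ± 0.25 in P (adjusted p = 0.00888, 0.000951 and 0.00117). Ftl1, the ferritin light chain, rose by 1.16 ± 0.28, 1.45 ± 0.28 and 1.76 ± 0.28 in the same order, the aldo-keto reductase gene Akr1b8 by 1.22 ± 0.21, 1.08 ± 0.21 and 1.09 ± 0.21, and the prostaglandin reductase gene Ptgr1 by 0.58 ± 0.11, 0.53 ± 0.11 and 0.50 ± 0.11. Ftl1 and Akr1b8 belong to families with very similar copies, among which reads may have been split. Most of the list did not pass.

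Of 19 tested other genes of NADPH supply and the pentose phosphate pathway, 2 (10.5%) rose in C, 2 (10.5%) in E and 4 (21.1%) in P, and 0 fell, with the shares in C and E near those of all genes. The medians were 0.11, 0.094 and 0.17. Aldh1l2, a mitochondrial folate enzyme that makes NADPH, averaged 3.82 ± 1.02 FPKM in C, 3.01 ± 0.116 in E, 4.40 ± 0.748 in P and 1.28 ± 0.0256 in H. It rose by 1.06 ± 0.14 in C, 0.81 ± 0.14 in E and 1.24 ± 0.14 in P (adjusted p = 0.00151, 0.00383 and 0.000536). Prps2, which turns ribose 5-phosphate into PRPP, rose in C by 0.46 ± 0.12 and in P by 0.48 ± 0.12. Aldh1l1, a cytosolic relative of Aldh1l2 and an astrocyte marker, rose in P by 0.51 ± 0.15, and Nadk, the NAD kinase that makes NADP, by 0.24 ± 0.074 (adjusted p = 0.038 and 0.0488).

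Of 16 tested genes of cystine and glutathione supply, 1 (6.25%) rose in C, 5 (31.2%) in E and 4 (25.0%) in P, and 0 fell. The medians were 0.029, 0.045 and 0.12. Slc3a2, the heavy chain that pairs with the product of Slc7a11, averaged 43.8 ± 3.50 FPKM in C, 49.7 ± 3.65 in E, 45.5 ± 3.84 in P and 36.1 ± 3.25 in H. It rose in E by 0.45 ± 0.10 (adjusted p = 0.0144) and in P by 0.33 ± 0.10 (adjusted p = 0.0497), and in C the difference was 0.27 ± 0.10 (adjusted p = 0.118). The astrocytic glutamate transporter gene Slc1a3 rose in E (0.71 ± 0.10) and P (0.58 ± 0.10), as did the amino acid transporter gene Slc7a8 (0.86 ± 0.17 and 0.93 ± 0.17). Ggt5, a gamma-glutamyl transferase, rose by 1.30 ± 0.24 in C, 0.89 ± 0.24 in E and 1.19 ± 0.24 in P.

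Slc7a11 is also a target of ATF4, the factor of the integrated stress response. Of 20 tested ATF4 genes, which include Slc3a2, 5 (25.0%) rose in C, 6 (30.0%) rose and 1 fell in E, and 4 (20.0%) rose in P. The medians were 0.20, 0.17 and 0.16. Atf3, a stress factor, rose by 2.15 ± 0.33 in C, 2.57 ± 0.33 in E and 2.42 ± 0.33 in P. Ddit3, which encodes CHOP, rose by 0.58 ± 0.10, 0.42 ± 0.10 and 0.52 ± 0.10, and the pseudokinase gene Trib3 by 0.79 ± 0.16, 0.68 ± 0.16 and 0.69 ± 0.16.

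Of 14 genes of fatty acid synthesis, a consumer of NADPH that Me1 supplies, 1 (7.14%) rose and 2 (14.3%) fell in C, 1 (7.14%) rose and 2 (14.3%) fell in E, and 2 (14.3%) rose and 3 (21.4%) fell in P. The medians were -0.15, -0.12 and -0.16. Scd1, a fatty acid desaturase, averaged 115 ± 8.31 FPKM in C, 115 ± 12.4 in E, 116 ± 5.89 in P and 170 ± 13.9 in H. Its log2 changes were -0.56 ± 0.11, -0.57 ± 0.11 and -0.55 ± 0.11 (adjusted p = 0.00882, 0.00586 and 0.00779). Thrsp, a regulator of lipogenesis, fell by 0.36 ± 0.081 in C, 0.75 ± 0.081 in E and 0.51 ± 0.081 in P on the log2 scale. The transcription factor gene Mlxipl rose in C by 0.84 ± 0.19 and in P by 0.84 ± 0.19. Another, Srebf1, rose in E by 0.44 ± 0.13 and in P by 0.52 ± 0.13. Mlxipl in E (0.56 ± 0.19) and Srebf1 in C (0.32 ± 0.13) did not pass (adjusted p = 0.0681 and 0.158).

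**Figure D4:**
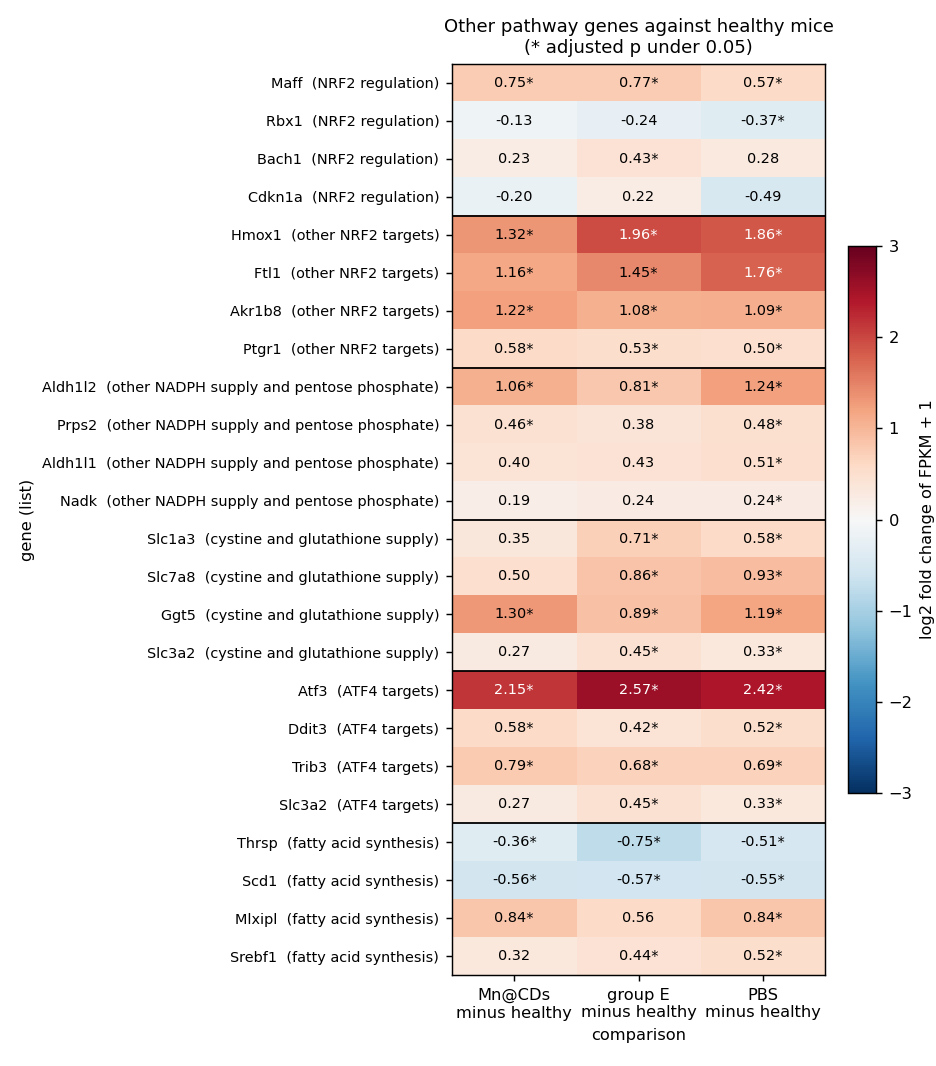
Colours and numbers give the log2 fold change of FPKM + 1 against healthy mice (columns, n = 3 mice per group) for up to 4 genes of smallest adjusted p in each of 6 lists (rows), and asterisks mark an adjusted p under 0.05. Atf3 has the largest value in every column, 2.15, 2.57 and 2.42, and Thrsp and Scd1 are blue in all columns.

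The tested genes whose profile was most like each member's were found by the root mean square difference of standardised log2 values over the 12 libraries, among 12679 named genes with a mean of at least 1 FPKM. For Nfe2l2 they were Fblim1 and Cttnbp2nl, with differences of 0.10 and 0.14, the smallest of any member. Fblim1 averaged 2.22 FPKM in C, 2.61 in E, 2.85 in P and 0.499 in H. For G6pdx they were Sel1l3 (0.22) and Zfyve26 (0.25), and for Pgd Tfpi (0.20) and Rplp0 (0.24). For Taldo1 they were Rpl7a (0.29) and Ccdc12 (0.32), which like Taldo1 had their highest mean in C. Rpl7a averaged 122 FPKM in C, 92.7 in E, 90.8 in P and 96.5 in H. For Slc7a11 they were C8g (0.36) and Htra2 (0.38), for Keap1 Palm (0.36) and Nelfcd (0.38), and for Nqo1 Mrps6 (0.37) and D1Ertd622e (0.41). For Srxn1 they were Ino80e (0.41) and Rab35 (0.43), and for Me1 Zcwpw1 (0.41) and Jam2 (0.42). The libraries share group, so a small difference describes these 12 libraries only.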

How the data were processed

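Poly(A) RNA of the lumbar spinal cord of 12 mice, 3 in each of 4 groups, was sequenced. The authors deposited 4 tables of FPKM values, 1 per group, that name no unit. FPKM was settled from the values, since 95.2 to 95.6% of low values (up to 50 multiples, tolerance 0.02) were whole multiples of 1 step per library after multiplication by the GENCODE M21 exon length. HISAT2, featureCounts and cutadapt were used with GRCm38, per the submitters' processing notes, and their versions and settings were not given there. Symbols and coordinates came from GENCODE M21 (33829 identifiers matched).

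A gene was tested if 3 or more libraries reached the CPM that equals 10 recovered reads at median depth, and if its reads over all libraries came to 15 or more. Limma 3.58.1 in R 4.3.3 (trended, robust moderation) was fitted to log2(FPKM + 1) of all 12 libraries, and was tested on simulated data. P-values are two-sided. Each mouse was counted as a replicate, and no mouse number is shared between groups.

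All members were named. From each other list up to 4 genes of smallest adjusted p in P against H were named, and per member the 2 genes of nearest profile. The members and lists were chosen with earlier results of these data known. Tried alternatives were another pseudocount, no filter or an FPKM filter, median-ratio scaling, limma-voom on recovered reads, fits of only 2 groups, a covariate of 9 caudal Hox genes, and leaving out each library.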

Additional observations from a re-analysis of the deposited data

How the results depend on the processing

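All fold changes of members and all counts of calls were recomputed in 19 settings, of which 12 left out 1 library each. No paired analysis was possible because no replicate number is shared between groups. The calls of Nfe2l2 in C, E and P, of Slc7a11 in C and E, and of G6pdx in P held in all 19 settings. The calls of Pgd, and of Slc7a11 in P, were the ones lost. The count of members called in P against H was 4, and it was 2 without the filter on low values and 2 when the fit held P and H alone. Without 1 library it ranged from 2 to 6 in P against H, from 2 to 3 in C against H and in E against H, and was 0 throughout in C against P, E against P and C against E. The 2 of P against H came without P66, P67, H1 or H4.

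The number of all genes called without 1 library ranged from 934 to 3540 in P against H, 576 to 1975 in C against H and 1157 to 2803 in E against H, and from 0 to 2 in C against P, 0 to 2 in E against P and 0 to 57 in C against E. Without the filter it was 1444 in P against H (2807 as reported), 736 in C against H (1505), 1469 in E against H (2392), 5 in C against P (1), 3 in E against P (0) and 4 in C against E (31). When the fit held the compared pair alone it was 1471 in P against H and 4 in C against E. In C against P it was 0 with a pseudocount of 0.1, with limma-voom and with the Hox covariate, 2 with median-ratio scaling and 4 with a filter of 0.5 FPKM, which gave 1 in E against P. In C against E it was 17 with a pseudocount of 0.1 and 0 with the Hox covariate. The cause was not tested.

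Sign changed only for values that passed in no setting. With median-ratio scaling, E against H was -0.029 for Nqo1 and -0.063 for Me1. With limma-voom G6pdx was at -0.0086 in C against E. With the Hox covariate C against E was -0.065 for G6pdx, -0.098 for Slc7a11, -0.027 for Me1 and 0.055 for Srxn1, Srxn1 was at 0.044 in C against P and -0.012 in E against P, and Nfe2l2 at 0.028 in E against P. Without 1 library, the values that changed sign ranged as follows. In C against H Keap1 ranged from -0.046 to 0.036. In E against H Keap1 ranged from -0.16 to 0.018, Nqo1 from -0.0060 to 0.13 and Me1 from -0.00017 to 0.11. In C against P Nqo1 ranged from -0.14 to 0.065. In E against P Nfe2l2 ranged from -0.15 to 0.089, Pgd from -0.018 to 0.16 and Taldo1 from -0.085 to 0.033. In C against E Keap1 ranged from -0.023 to 0.16, Slc7a11 from -0.013 to 0.16, G6pdx from -0.094 to 0.097 and Pgd from -0.037 to 0.14. Reads per gene were fewest, and counting precision lowest, for Slc7a11 and Nqo1.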
